A study of Rattus norvegicus with 20 samples.

Results

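Transcripts that mark monocytes were followed in rat whole blood across a reflux esophagitis study. The 8 genes were Cd14, Cd68, Csf1r, Klf4, Vcan, Lgals3, Cd163 and Lyz2, chosen by name as monocyte markers. All 8 of the 26263 genes on the array had a probe under that name, with 10 of the 30367 probes between them. Of these, 9 probes and 7 genes passed the filter on dim signal and were tested among 15239 genes, while Cd163 did not pass and is described by array. Blood came from 20 Wistar rats, 4 in each of 5 groups, with 1 array per rat. In the sham group the rats had a sham operation, and in the other groups reflux esophagitis, an inflammation of the gullet caused by backflow from the stomach, was induced by surgery. The untreated group received no drug. Omeprazole, a proton pump inhibitor, was given at 30 mg/kg, and STW5, a fluid herbal medicine, at 0.5 ml/kg or at 2 ml/kg. Dosing began 7 days ahead of surgery and went on until 10 days later. The labels give no age, and the blood was drawn whole into PAXgene tubes, which fix RNA.

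Monocytes are circulating phagocytes that leave the blood for inflamed tissue, where they can become macrophages. CSF1R, the receptor for colony-stimulating factor 1, keeps the lineage alive, and the transcription factor KLF4 acts in the maturation of monocytes. CD14 is the surface coreceptor that passes bacterial lipopolysaccharide to TLR4, and CD163 takes up complexes of haptoglobin and haemoglobin. CD68 lies in the membrane of late endosomes and lysosomes, lysozyme (Lyz2) digests bacterial cell walls, galectin-3 (Lgals3) is a lectin that binds galactosides, and versican (Vcan) is a large proteoglycan of the matrix. Several of these transcripts are not confined to monocytes: neutrophils also carry lysozyme, galectin-3 and some CD14, and tissue macrophages carry CD163 and CD68. In unsorted blood, fewer cells of a type and less RNA per cell cannot be told apart.

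Each level rests on what a 60-base probe binds, and the place of these probes in their transcripts differs. A stretch of 30 bases from the probe of each gene below is shown, so that the transcript measured can be identified, with the polyadenylation signal AATAAA in capitals where the stretch holds it.
Cd68: gttatctcccttctctgtctttaagaacaa
Klf4: tatgcactgtggtttcagatgtgcaataat
Vcan, brighter probe: aaattcctcatcagtcaaggacaattctat
Vcan, dimmer probe: gtgttgacttactagggctttttacttttt
Lgals3: atccatttAATAAAgtctcgtgctgagaga
Cd163: tcaagttcagtaccaagagatggattcgaa
Lyz2: gatgagcttgtaacaccagacaataatcac
The Lgals3 probe alone among the 10 held that signal, which stood in 8.39% of all probes. On build rn4, as the array annotation gives it, the Cd68 probe lies at chr10:56481726-56481785, that of Lgals3 at chr15:23338947-23339006 and that of Cd163 at chr4:160423704-160423763. Both Vcan probes lie on chromosome 2 and 1 transcript record, at chr2:19714573-19714632 and chr2:19712767-19712826. Csf1r also had 2 probes, both on chromosome 18, of which the brighter spans 702 bases of the genome, so that its 60 bases lie there in separate pieces.

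The level of a gene is the log2 of its background-subtracted signal minus the log2 of the array's 75th percentile of signal, so 0 is the 75th percentile. That percentile ranged from 71.3 to 308, and the share of probes well above background from 43.1% to 57.4%. Slide 1 held the sham and untreated arrays, slide 2 those of STW5 and slide 3 those of omeprazole, so slide and treatment cannot be told apart where treated rats are compared with the others. The labels conflict on the STW5 doses: titles and design text number these groups in opposite order, and 8 columns of the authors' deposited value table follow the arrays of the other dose. The titles were followed here, and for most comparisons the mean of both doses was used. Untreated 1 correlated with the sham arrays at a mean of 0.984 over all genes and with its own group at 0.92. Across genes, the mean correlation with the own group was 0.977 to 0.981 in sham and 0.91 to 0.938 in untreated rats.

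In untreated esophagitis 5 of the 7 members tested had a higher mean than in sham, led by Vcan, Cd14, Cd68 and Lgals3, but none passed the test, and 38.1% of all genes had a higher mean. Only 1 of all 15239 genes passed there (0.00656%). The median log2 change was 1.26 over the 7 members and -0.19 over all genes. At an unadjusted p below 0.05 stood 4 of the 7, and 18.2% of all genes.

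**Figure D1:**
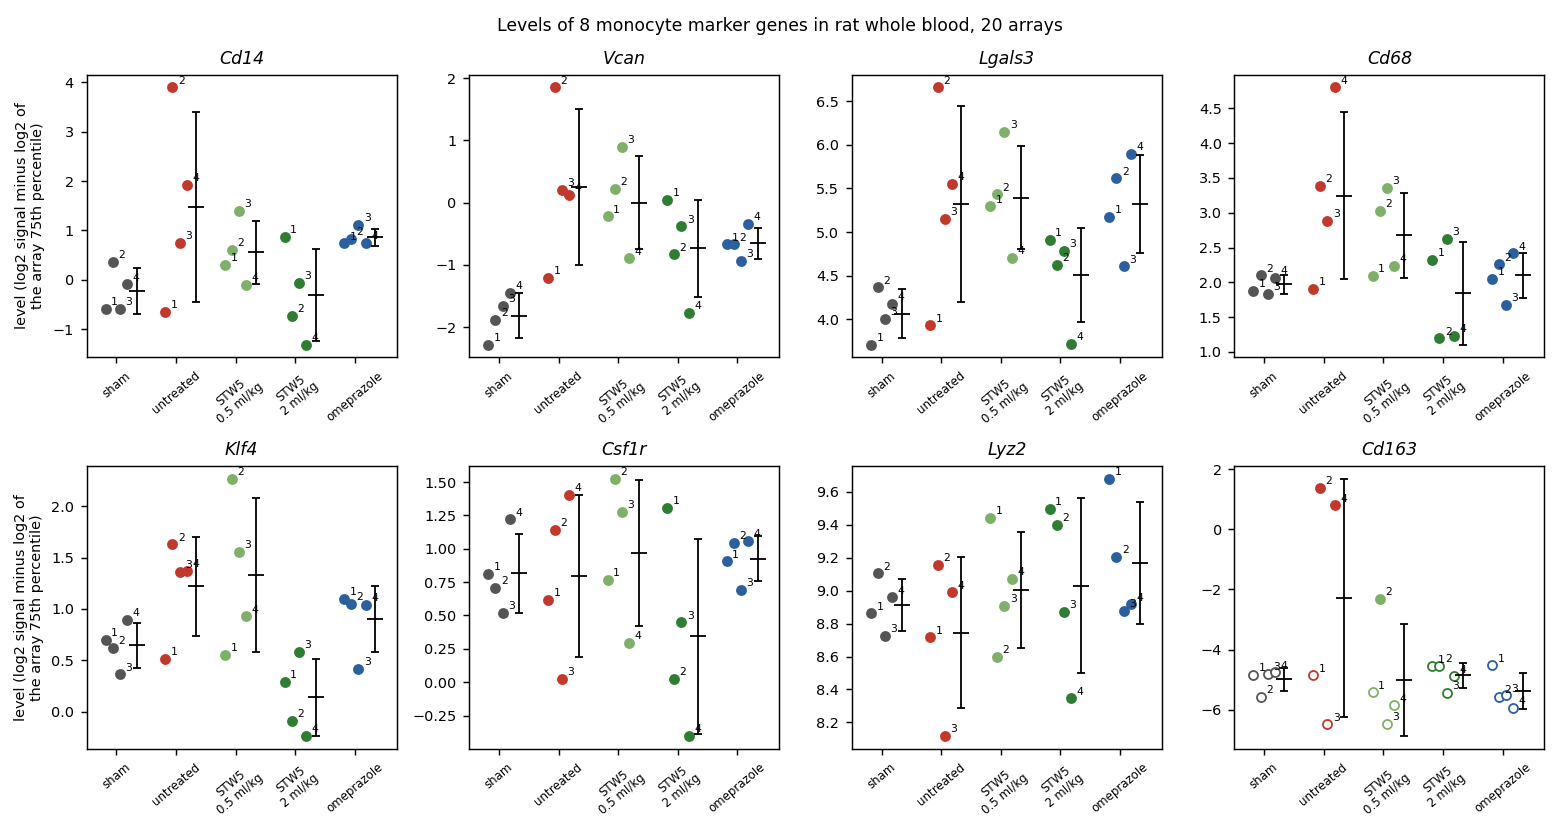
Level of each gene (log2, relative to the array's 75th percentile) on the 20 arrays by group, with replicate numbers beside the points, and the group mean and SD (n = 4) as black bars. Open points are not well above background. Untreated 2 is highest for Cd14, Vcan, Lgals3 and Cd163 and untreated 4 for Cd68, and untreated 1 lies among or near the sham arrays.

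Versican differed most. Its levels were -2.28, -1.88, -1.65 and -1.44 in sham and -1.20, 1.85, 0.21 and 0.13 in untreated rats. All 4 untreated arrays lay above all 4 sham arrays, as for 1.49% of all genes (1.65% lay below without overlap), and untreated 1 came closest to sham. The change was 2.06 ± 0.50 (SE, n = 4 against 4), or 4.17-fold, with a limma adjusted p of 0.242. The dimmer Vcan probe gave 1.75 ± 0.56 and followed the brighter one over the 20 arrays (r = 0.963).

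Cd14 stood at -0.58, 0.36, -0.59 and -0.09 in sham and at -0.65, 3.90, 0.74 and 1.92 in untreated rats. The groups overlapped through untreated 1, while untreated 2 had the highest Cd14 level of all 20 arrays. The change was 1.71 ± 0.66 (limma adjusted p = 0.249).

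Lgals3 gave 3.71, 4.37, 4.01 and 4.18 in sham against 3.93, 6.66, 5.15 and 5.56 in untreated rats. Its change was 1.26 ± 0.45 (limma adjusted p = 0.242). Only untreated 1 lay within the sham range. For Cd68 the sham arrays were close together at 1.88, 2.10, 1.84 and 2.07, and the untreated arrays lay at 1.91, 3.39, 2.89 and 4.80. Its change was 1.28 ± 0.47 (limma adjusted p = 0.242), and untreated 4 was the highest of all 20 arrays.

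Klf4 lay at 0.70, 0.62, 0.36 and 0.89 in sham and 0.52, 1.63, 1.36 and 1.37 in untreated rats, a change of 0.57 ± 0.33 with a limma adjusted p of 0.311. Csf1r and Lyz2 showed almost no difference in mean. Csf1r differed by -0.02 ± 0.35, with a 95% interval of -0.76 to 0.72, and Lyz2 by -0.17 ± 0.29, with an interval of -0.77 to 0.43. Those intervals leave room for differences of up to about that size in either direction.

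These values moved with the rats included. Without untreated 1, Vcan (2.54, adjusted p = 0.00627), Lgals3 (1.72, adjusted p = 0.0191), Cd14 (2.42, adjusted p = 0.0201) and Cd68 (1.72, adjusted p = 0.0245) passed in limma, as did 1773 of all genes. Untreated 1 was the lowest untreated array for each of these members, so that leaving it out had to raise the difference. Without untreated 2 and 4, both high in macrophage markers as described below, the changes were 1.32 for Vcan, 0.27 for Cd14, 0.48 for Lgals3 and 0.43 for Cd68, and none passed. For Cd14, Lgals3 and Cd68 these were the 2 highest untreated arrays, so that leaving them out had to lower the difference.

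Cd163 was close to absent from most of these blood samples. Its probe was not well above background on any sham, omeprazole or STW5 2 ml/kg array. Of the 20 arrays, 3 measured it: untreated 2 at a level of 1.39, untreated 4 at 0.80 and STW5 0.5 ml/kg replicate 2 at -2.31. Their signals were 433, 385 and 62.1, against 2.98 to 4.32 on the other 17. Untreated 1 and 3, from the same group, stood at background with -4.85 and -6.48. The mean of all 4 untreated arrays lay 3.04-fold above the lowest level that counted as well above background on the sham arrays. As only 2 of the 4 measured Cd163, that mean takes untreated 1 and 3 at their background values. The fold is therefore no firm lower bound. With all dim probes kept in the fit the change was 2.70 ± 1.23 (limma adjusted p = 0.272).

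The same arrays held high levels of other macrophage transcripts. C1qb, a chain of complement C1q made chiefly by macrophages, lay at 5.60 on untreated 2 and 6.61 on untreated 4, with a median of 0.07 over all arrays. C1qa lay at 3.23 and 4.78 there, C1qc at 1.52 and 2.42, and the scavenger receptor gene Msr1 at 0.86 and 1.09. C1qa, C1qc and Msr1 were each well above background on 4 of the 20 arrays, untreated 2 and 4 among them. Untreated minus sham was 2.75 ± 1.23 for C1qb (limma adjusted p = 0.268). C1qa and Msr1 were measured on no sham array. Reckoned as for Cd163, their untreated means lay 8.04-fold and 3.00-fold above sham, with untreated 1 and 3 again at background values. Vsig4, of resident macrophages, and Mertk, a receptor for the uptake of dying cells, were each measured only on untreated 2 and 4. Marco, a scavenger receptor, and Mrc1, the mannose receptor, were measured only on untreated 2, at -1.90 and -2.82.

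The array next in order by the score of these genes was again STW5 0.5 ml/kg replicate 2, with C1qb at 1.91 and C1qa at -0.64. Of the 9 listed tissue macrophage markers 8 were on the array and 4 were tested, and none passed in any of the 6 comparisons. The score of these 4, the mean of each gene's level minus its own mean over all arrays, was 5.51 on untreated 2 and 6.44 on untreated 4. It ranged from -1.05 to 0.19 in sham, from -1.43 to 1.78 in STW5 0.5 ml/kg, from -0.76 to 0.56 in STW5 2 ml/kg and from -1.70 to -0.26 in omeprazole, and was -0.37 and -2.35 on untreated 1 and 3. The part of these transcripts in the levels of the other members was not tested.

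**Figure D2:**
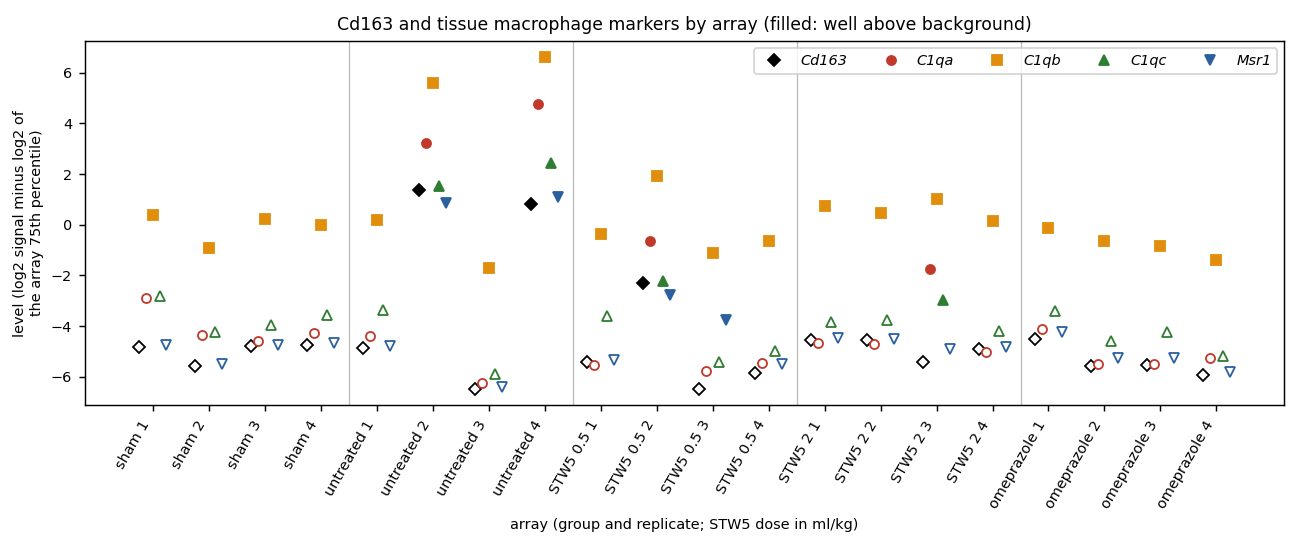
Level (log2, relative to the array's 75th percentile) of Cd163, C1qa, C1qb, C1qc and Msr1 on each of the 20 arrays. Filled symbols are well above background. All 5 genes are highest on untreated 2 and 4, and STW5 0.5 ml/kg replicate 2 is the only other array with Cd163 above background.

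In omeprazole-treated rats all 7 members had a mean at or above that of sham, and none passed the test, against 722 of all genes (4.74%), while 42.2% of all genes had a higher mean. The members' median change was 0.26 and that of all genes -0.08. Omeprazole gave tighter groups than untreated esophagitis for Cd14, with levels of 0.74, 0.83, 1.11 and 0.75, so that the SD was 0.18 against 1.93. Every omeprazole array lay above every sham array for Cd14, Vcan and Lgals3, as did 6.84% of all genes, and 8.51% lay below without overlap.

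Cd14 differed from sham by 1.09 ± 0.66 (limma adjusted p = 0.542). That SE pools the spread within all 5 groups, and the SD of Cd14 was 0.18 in omeprazole, 0.46 in sham and 1.93 in untreated rats. Vcan, at -0.67, -0.67, -0.94 and -0.34, differed by 1.16 ± 0.50 (limma adjusted p = 0.261). Lgals3, at 5.18, 5.62, 4.61 and 5.90, differed by 1.26 ± 0.45 (limma adjusted p = 0.137). With only these 8 arrays in the fit, which leaves out the untreated and both STW5 groups, the same changes had limma adjusted p values of 0.0192, 0.00988 and 0.0218, and 1476 of all genes passed. With the neutrophil score as a covariate, described below, they became -0.22, 0.10 and 0.21. Cd68 (0.13), Csf1r (0.11), Klf4 (0.26) and Lyz2 (0.26) were each within 1 SE of 0 in this comparison.

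Both STW5 doses together differed from sham mainly in Vcan, at 1.45 ± 0.43 with a limma adjusted p of 0.398, and in Lgals3, at 0.89 ± 0.39 (limma adjusted p = 0.577). Vcan lay at -0.22, 0.22, 0.90 and -0.89 with the lower dose and at 0.04, -0.83, -0.38 and -1.77 with the higher one, so that only STW5 2 ml/kg replicate 4 fell within the sham range. The other 5 members differed from sham by -0.16 to 0.35. No gene of 15239 passed in this comparison (0%), in limma, although 8.11% of genes and 2 of the 7 members had an unadjusted p below 0.05. The mean was higher than in sham for 6 of the 7 members and 42.1% of all genes, and no member but 1.19% of all genes lay above sham without overlap.

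Against untreated esophagitis, the means of most members were lower with treatment. These comparisons share the untreated arrays with the comparison against sham, so they are not independent of it. Omeprazole gave a lower mean for 5 of the 7, counting Lgals3, whose change rounded to 0.00. None of the 7 passed, while 637 of all genes did (4.18%), most of them lower (3.83%). A higher mean was found for 58.2% of all genes. No member was without overlap, against 2.31% of genes above and 4.95% below. Cd68 differed most, with omeprazole arrays at 2.05, 2.26, 1.68 and 2.42 and a change of -1.14 ± 0.47 (limma adjusted p = 0.225). It passed in limma without untreated 1, at -1.59 with an adjusted p of 0.0302, and was -0.30 without untreated 2 and 4. For Cd68 untreated 1 was the lowest untreated array and untreated 2 and 4 the highest. Leaving them out therefore had to move the change in these directions. Vcan differed by -0.90 ± 0.50, Cd14 by -0.62 ± 0.66 and Lgals3 by 0.00 ± 0.45. Cd14 turned to 0.81 without untreated 2 and 4.

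For both STW5 doses together 6 of the 7 members had a lower mean than in untreated rats, with Lyz2 the exception, while 60.4% of all genes had a higher one. Without overlap stood 0.0394% of genes above and 0.0459% below, and no member. No gene passed (0%), by limma, and 2 members and 9.55% of all genes had an unadjusted p below 0.05. Cd14 differed by -1.36 ± 0.57 (limma adjusted p = 0.483) and Cd68 by -0.98 ± 0.40 (limma adjusted p = 0.482). Without untreated 2 and 4, the highest untreated arrays for both genes, these were 0.08 and -0.14.

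**Figure D3:**
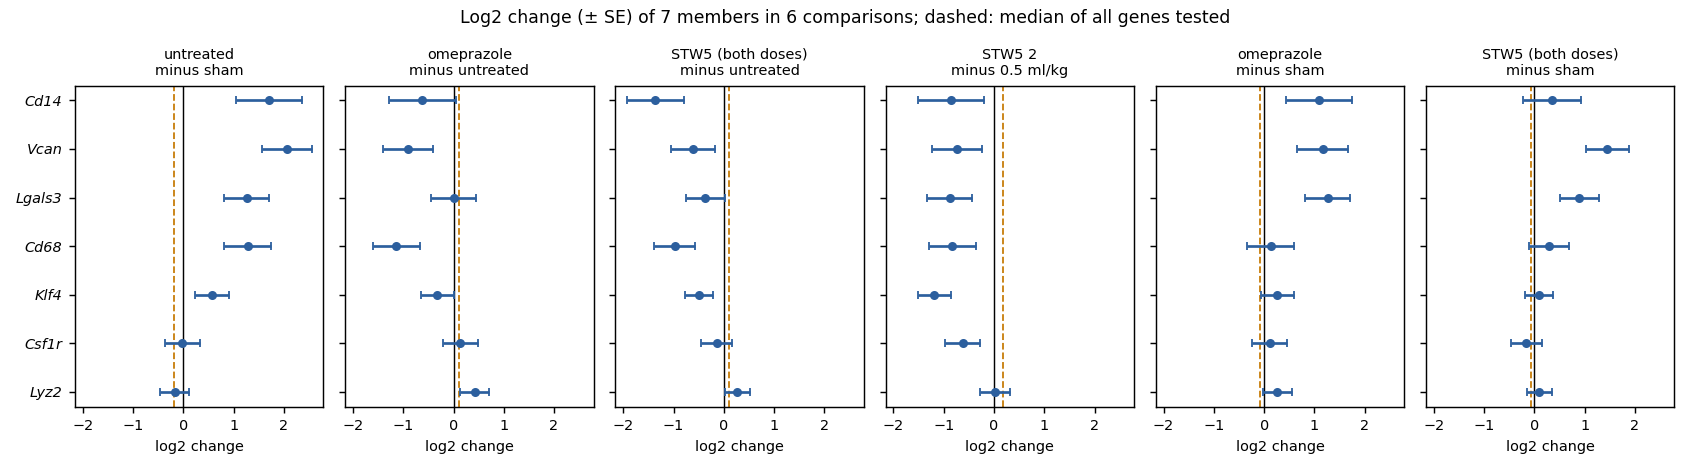
Log2 change with its standard error (bars) for the 7 tested members in the 6 comparisons, with 4 arrays per group and 8 for both STW5 doses. Dashed lines mark the median change of all 15239 genes. All 7 members lie at or above that median in untreated against sham, with Vcan, Cd14, Lgals3 and Cd68 farthest from it. All 7 lie below it in STW5 2 against 0.5 ml/kg.

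Between the STW5 doses, as the titles name them, 6 of the 7 members had a lower mean at 2 than at 0.5 ml/kg, while 59.7% of all genes had a higher one. No member was without overlap, against 7.36% of genes above and 3.83% below. All 7 lay below the median of all genes, which was 0.18, while the members' median was -0.83. If these arrays in fact carry the other dose, each of these signs turns. No gene of 15239 passed (0%) in limma, while 26.6% of genes and 1 of the 7 members had an unadjusted p below 0.05.

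Klf4 came closest, at 0.56, 2.27, 1.56 and 0.93 with 0.5 ml/kg and at 0.29, -0.09, 0.58 and -0.24 with 2 ml/kg. The groups met at 0.56 and 0.58. Its change was -1.19 ± 0.33 (limma adjusted p = 0.0759), and it passed in limma with normexp background correction (-1.02, adjusted p = 0.0345), where 3761 of all genes did. It also passed without STW5 0.5 ml/kg replicate 1 (-1.45, adjusted p = 0.0407), as did 228 genes, and without STW5 2 ml/kg replicate 3 (-1.34, adjusted p = 0.0429), as did 807. These arrays were the lowest and the highest of their groups for Klf4, so that leaving out either had to widen the difference. Lgals3 differed by -0.88 ± 0.45, from 5.29, 5.43, 6.15 and 4.71 to 4.91, 4.63, 4.79 and 3.72.

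The remaining changes were -0.86 ± 0.66 for Cd14, -0.83 ± 0.47 for Cd68, -0.73 ± 0.50 for Vcan and -0.62 ± 0.35 for Csf1r, and Lyz2 did not differ in mean (0.02 ± 0.29). The arrays of the higher dose were dimmer. Their 75th percentiles were 77.7, 71.3, 163 and 105, against 152, 308, 288 and 186 for the lower dose. With array signal as a covariate Cd68 turned to 0.08, and Klf4 kept its sign at -0.61.

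The order of the 5 groups differed between members, and for every tested member each group's range overlapped that of its neighbour in the order. By mean level, untreated rats came first for Cd14 (1.48 ± 1.93, SD, n = 4), Cd68 (3.25 ± 1.20) and Vcan (0.25 ± 1.25). STW5 0.5 ml/kg came first for Lgals3 (5.40 ± 0.59), Klf4 (1.33 ± 0.75) and Csf1r (0.97 ± 0.55), and omeprazole for Lyz2 (9.17 ± 0.37). Sham came last for Vcan (-1.81 ± 0.36) and Lgals3 (4.07 ± 0.28), and STW5 2 ml/kg for Cd14, Cd68, Csf1r and Klf4. Lyz2 alone had its lowest mean in untreated rats (8.75 ± 0.46).

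Members also differed in how widely they varied. From the lowest to the highest of 20 arrays Cd14 spanned 37.0-fold, from STW5 2 ml/kg replicate 4 to untreated 2. Vcan spanned 17.5-fold, Cd68 12.2-fold, Lgals3 7.71-fold, Klf4 5.67-fold, Csf1r 3.8-fold and Lyz2 2.95-fold. The SD within groups was 1.02 for Cd14, higher than for 96.4% of genes tested, and 0.39 for Lyz2, against a median of 0.51 over all genes. Single rats stood out across members: untreated 2 held the highest level of 3 members, and STW5 2 ml/kg replicate 4 the lowest of 3.

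Csf1r gave different answers by probe. Over the 20 arrays its 2 probes did not vary together (r = -0.131). The dimmer probe stood at 0.38, 0.76, 0.50 and 0.44 in sham and at 0.68, -1.02, -0.08 and 0.08 in untreated rats, a change of -0.60 ± 0.31 (limma adjusted p = 0.283). Its change from untreated to both STW5 doses was 0.59 ± 0.27, and that between the doses 0.40 ± 0.31, both of the opposite sign to the brighter probe. On untreated 2 the brighter probe lay high in the sham range at 1.14 and the dimmer one was at its lowest. A statement on Csf1r therefore holds for 1 probe and not for the gene.

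Most members varied together from rat to rat. Of 21 pairs, 14 correlated over the 20 arrays with an adjusted permutation p below 0.05, and all 14 were positive. The share among pairs of other genes was not computed, so this count is not shown to be particular to the members. Vcan and Lgals3 were closest, at a Pearson r of 0.902 with an adjusted permutation p of 0.000105 and a Spearman rho of 0.886 with one of 0.00021. Both had an unadjusted permutation p of 1e-05, the smallest that 100000 permutations can give. Cd14 followed Lgals3 at r = 0.846 (permutation p = 1e-05, adjusted 0.000105; rho = 0.786, permutation p = 7e-05, adjusted 0.000367) and Vcan at r = 0.819 (permutation p = 3e-05, adjusted 0.00021; rho = 0.708, permutation p = 0.00075, adjusted 0.00197). Cd68 and Klf4 gave r = 0.744 (permutation p = 0.00017, adjusted 0.000892) and rho = 0.788 (permutation p = 9e-05, adjusted 0.000378). Without the 2 arrays of most extreme level these 4 values of r were 0.844, 0.768, 0.679 and 0.840.

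Within groups, 7 of the 21 pairs remained past the threshold. Vcan with Lgals3 gave r = 0.930 there (permutation p within groups = 2e-05, adjusted 0.00042), Cd14 with Vcan 0.892 and Cd14 with Lgals3 0.857. The relation of Vcan and Lgals3 was alike on slide 1 (r = 0.962) and slide 2 (r = 0.959), and slide 3 held too few arrays. None of the 6 pairs with Lyz2 passed, with r from -0.123 to 0.358.

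**Figure D4:**
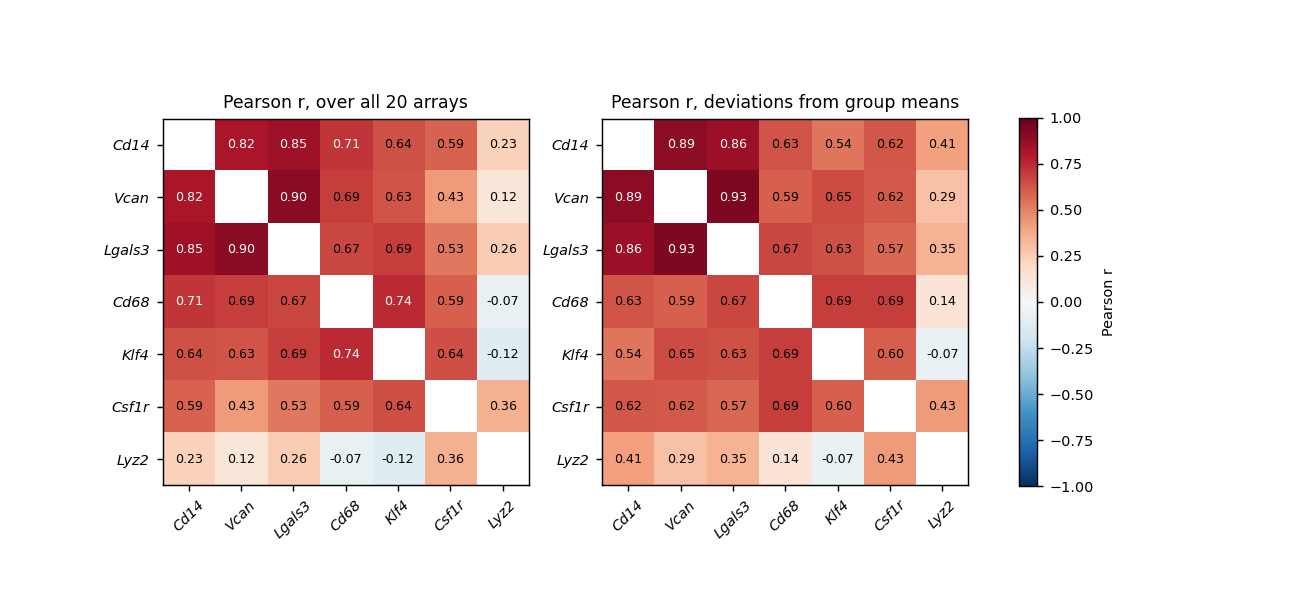
Pearson r between the levels of the 7 tested members over 20 arrays (left) and after the mean of each group was subtracted (right), on 1 colour scale from -1 to 1. Cd14, Vcan and Lgals3 form the warmest block in both, and Lyz2 is near 0 with Cd68, Klf4 and Vcan over all arrays.

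Genes most like each member over the 20 arrays were named by Pearson r among all genes with a symbol, and the highest of so many values is given as a description. Lgals3 was closest to Alox5ap, which serves leukotriene synthesis (r = 0.989, and 0.989 within groups), then to Plekhb2 (0.981) and the interferon gamma receptor gene Ifngr1 (0.976). Cd68 was closest to Cebpb, a myeloid transcription factor gene (0.936), then to Rab20 (0.934) and Agpat4 (0.929). Cd14 was closest to Ass1 (0.937), the complement gene C3 (0.935) and Cndp2 (0.916). Ass1 was well above background on only 12 of the 20 arrays, so its r rests in part on background values.

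Csf1r, by its brighter probe, was most like Psap (0.907), which encodes the precursor of lysosomal saposins, Anxa5 (0.857) and the cathepsin gene Ctsz (0.852). For Klf4 the nearest were Mapkapk3 (0.905), the leukocyte integrin gene Itgb2 (0.889) and Ssh3 (0.886). Vcan came nearest to Rab31 (0.918), the haem synthesis gene Alas1 (0.906) and Plekhb2 (0.900). Lyz2 was most like Map3k6 (0.880), Cox5b of the respiratory chain (0.842) and Rnf123 (0.840). Plekhb2, near both Lgals3 and Vcan, was the one gene named for more than 1 member.

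Neutrophil transcripts moved with several members. The neutrophil score, the mean over 17 markers of level minus each gene's mean, ranged from -1.39 to -0.52 in sham, -0.82 to 1.85 in untreated, 0.11 to 0.93 in STW5 0.5 ml/kg, -1.10 to 0.50 in STW5 2 ml/kg and -0.34 to 1.02 in omeprazole. Of the 7 members 4 correlated with it past the threshold over 20 arrays, and 2 of them, Lgals3 and Vcan, also with group means removed, while Cd14 and Lyz2 had an adjusted permutation p of 0.063 there. Lgals3 did so most closely, at r = 0.874 (permutation p = 1e-05, adjusted 7e-05) and rho = 0.868 (permutation p = 2e-05, adjusted 0.00014), with r = 0.820 within groups and 0.798 without the 2 extreme arrays. How many of all genes correlate with the score was not computed.

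Vcan gave r = 0.757 (permutation p = 0.00016, adjusted 0.00056) and rho = 0.695 (permutation p = 0.00099, adjusted 0.00346), and r = 0.742 within groups. Cd14 gave r = 0.665 (permutation p = 0.00152, adjusted 0.00355) and rho = 0.534 (permutation p = 0.0173, adjusted 0.0303), but r was 0.422 without the 2 extreme arrays. Lyz2 gave r = 0.503 (permutation p = 0.0239, adjusted 0.0418) and rho = 0.608 (permutation p = 0.00546, adjusted 0.0127). Cd68, Csf1r and Klf4 did not pass, at r = 0.299, 0.327 and 0.405. With the score as a covariate, untreated rats differed from sham by 1.30 in Vcan, 0.77 in Cd14 and 0.51 in Lgals3, and none of the members passed.

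**Figure D5:**
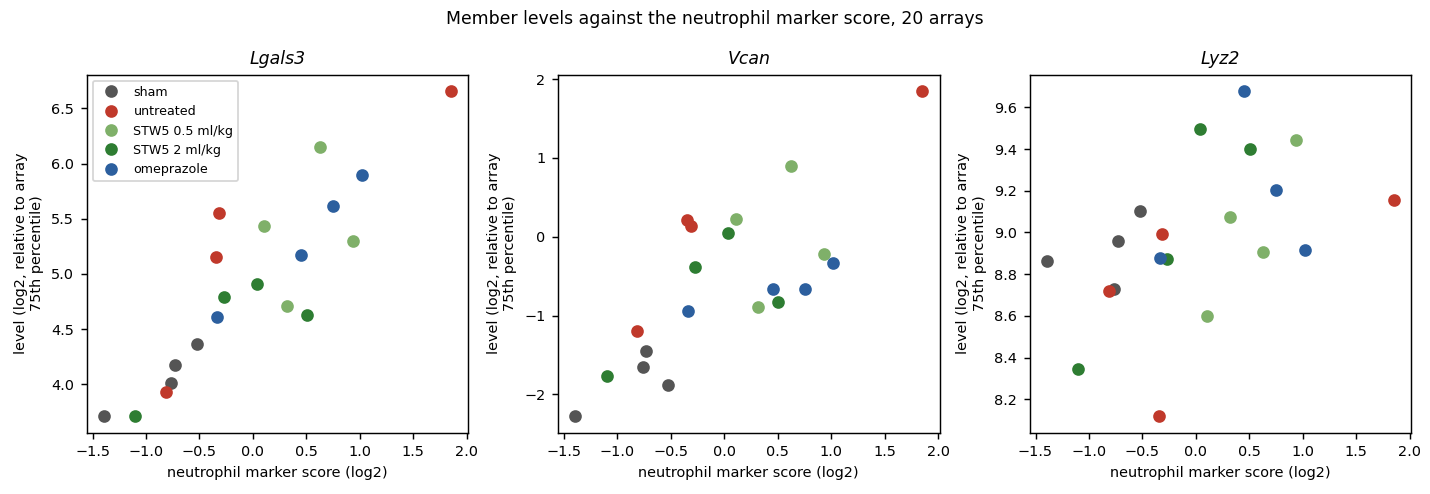
Level of Lgals3, Vcan and Lyz2 (log2, relative to the array's 75th percentile) against the neutrophil marker score of the same array, coloured by group. Lgals3 follows the score most closely (r = 0.874), Vcan less so (r = 0.757), and Lyz2 least (r = 0.503).

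Array signal was a further measure that moved with members. Over 20 arrays the log2 of the 75th percentile correlated with Klf4 at r = 0.754 (permutation p = 1e-04, adjusted 7e-04; rho = 0.711, permutation p = 0.00071, adjusted 0.00248) and with Cd68 at r = 0.653 (permutation p = 0.00087, adjusted 0.00304; rho = 0.708, permutation p = 0.00066, adjusted 0.00248). Lgals3 was the third of the 7 to pass, at r = 0.567 (permutation p = 0.00975, adjusted 0.0227; rho = 0.555, permutation p = 0.0128, adjusted 0.0299). Without the 2 arrays of most extreme signal r was 0.690 for Klf4, 0.648 for Cd68 and 0.644 for Lgals3. After group means were subtracted none of the 7 passed, with r of 0.513 for Klf4 and 0.534 for Cd68. How many of all genes correlate with array signal was not computed. The 75th percentile is also what is subtracted to give each level, so level and array signal are not independent measures.

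RefSeq's table for GRCr8 held the promoters of 7 of the 8 genes. The letters GAGGAA, the core bound by the myeloid factor PU.1, were sought on both strands in the 250 bases before each start. They stood in 4 of the 7, those of Cd14, Cd68, Csf1r and Lyz2, and in 23.3% of 33469 promoters of that length. The longer form GAGGAAGT stood in 0 of the 7 and in 2.04% of all. Those of Cd68 and Lyz2 are shown with the core in capitals (TTCCTC is the same core read on the other strand), 27 and 46 bases before the start, beside Vcan, whose window lacks it. Each is the 100 bases before the start, all on the minus strand: Cd68 at chr10:54882442-54882541, Lyz2 at chr7:54798012-54798111 and Vcan at chr2:22595858-22595957.
Cd68: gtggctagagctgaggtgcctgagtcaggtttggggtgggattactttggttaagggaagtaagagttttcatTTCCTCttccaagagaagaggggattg
Lyz2: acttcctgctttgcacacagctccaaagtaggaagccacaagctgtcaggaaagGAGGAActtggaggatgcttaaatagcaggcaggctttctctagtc
Vcan: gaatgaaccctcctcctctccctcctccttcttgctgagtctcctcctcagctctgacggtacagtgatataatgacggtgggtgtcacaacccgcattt
The C/EBP letters TTGCNNAA stood in the Lyz2 window alone (9.22% of all promoters) and the AP-1 letters TGANTCA in that of Cd68 alone (6.34%). Among the 4 members with the PU.1 core, r over the 20 arrays was 0.715 for Cd14 with Cd68. It was 0.594 for Cd68 with Csf1r and 0.59 for Cd14 with Csf1r. For Lyz2 it was 0.358 with Csf1r, 0.23 with Cd14 and -0.0716 with Cd68. A match is a stretch of letters and not a bound site.

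Other genes of the same pathways were counted from lists of known genes. In untreated against sham all 12 tested myeloid transcription factor genes had a higher mean, with a median of 0.61, and none passed. Zeb2 (1.85 ± 0.55), Cebpb (1.27 ± 0.47) and Bhlhe40 had the smallest p. Bhlhe40 was not well above background on any sham array and was at least 2.48-fold higher in untreated rats. The list's score ranged from -0.39 to -0.12 in sham and from -0.41 to 0.91 in untreated rats, so it overlapped at the low end. Of 12 lysosomal membrane and protease genes 10 had a higher mean, with a median of 0.71, led by Gpnmb (1.51 ± 0.47), the tetraspanin gene Cd63 (1.51 ± 0.54) and the sterol carrier gene Npc2 (1.04 ± 0.42). Lysosomal scores were 1.04 and 0.96 on untreated 2 and 4 and -0.47 and -0.19 on untreated 1 and 3.

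Of 9 CD14 and TLR4 signalling genes tested 8 had a higher mean in untreated rats than in sham, with a median of 0.61. Tlr2, a receptor for bacterial lipoproteins, differed by 1.07 ± 0.41, Traf6 by 0.67 ± 0.30 and the kinase gene Irak1 by -1.25 ± 0.48, and none passed. With omeprazole Tlr6, a partner of Tlr2, rose against sham by 1.26 ± 0.33 (limma adjusted p = 0.0280) and the groups did not overlap. Of all genes 0.742% were called higher there, and 6.84% lay above sham without overlap. Irak4, the kinase upstream of Irak1, also passed, lower with omeprazole than in untreated rats (limma adjusted p = 0.0132) and than in sham (limma adjusted p = 0.0486). Its probe was dim, however: well above background on no omeprazole or sham array and on 2 of the 4 untreated arrays. Reckoned as for Cd163, its untreated mean lay 1.43-fold above omeprazole, which is no firm bound, and it has no fold against sham.

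Among 14 monocyte surface and receptor genes the untreated changes split, 8 higher and 6 lower, with a median of 0.30. Csf2ra, a chain of the GM-CSF receptor, differed by 1.11 ± 0.38 and Cd300e by -1.10 ± 0.40. Cd300e was well above background on 1 untreated and 3 sham arrays, so its change rests in part on background values. Csf2rb, the other chain of the GM-CSF receptor, was measured above background by 3 untreated arrays but no sham array. Reckoned as for Cd163, its untreated mean lay 1.74-fold above sham, which is no firm bound. Cx3cr1, the fractalkine receptor of patrolling monocytes, was lower with omeprazole than in untreated rats and fell by 1.95 on the log2 scale (limma adjusted p = 0.0350) with no overlap. It was the single gene of these 14 to pass in any of the 6 comparisons. In that one 3.83% of all genes were called lower, and 4.95% lay lower without overlap.

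For the CSF1R pathway 6 of 8 tested genes had a higher mean in untreated rats than in sham (median 0.32), among them the adaptor gene Grb2 (0.59 ± 0.24) and the ligand gene Csf1 (1.02 ± 0.58), while Sos1 differed by -0.78 ± 0.45. Csf1 rose in omeprazole against sham by 2.03 ± 0.58 (limma adjusted p = 0.0488), while Csf1r itself differed by 0.11 ± 0.35. Klf6, a relative of Klf4 among the transcription factors, rose there by 1.18 ± 0.33 (limma adjusted p = 0.0471). In omeprazole against sham 0.742% of all genes were called higher.

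Genes around Cd163, Vcan and Lgals3 went in both directions in untreated against sham. Of 9 haptoglobin, hemopexin and haem handling genes 4 had a higher and 5 a lower mean in untreated rats (median -0.38), with the haem transporter gene Slc48a1 at -1.60 ± 0.51, Blvrb at -1.51 ± 0.55 and haptoglobin, Hp, at 1.75 ± 0.76. Only 4 of 10 versican and hyaluronan matrix genes were tested, 2 of them higher and 2 lower, with Hyal2 at 1.45 ± 0.44, the hyaluronan receptor gene Cd44 at 0.99 ± 0.35 and Selplg at -0.85 ± 0.41. Of 8 galectin family genes without Lgals3 6 had a lower mean (median -0.58), with Lgals12 at -1.08 ± 0.50, Lgals5 at -0.92 ± 0.50 and Lgals3bp at -0.75 ± 0.44. The matrix list was higher than sham in 4 of 4 genes with omeprazole (median 0.47) and 3 of 4 with STW5 (median 0.42), where Vcan too had a higher mean. None of these 3 lists had a gene past the threshold in any comparison.

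Markers of other blood cells also differed in mean, though none passed in untreated against sham, where 38.1% of all genes had a higher mean. In untreated against sham 16 of 17 neutrophil markers had a higher mean (median 1.13), among them Ncf1 (1.30 ± 0.34), Itgam (1.57 ± 0.48) and Cxcr2 (1.35 ± 0.45). In the same comparison 10 of 11 T-cell markers were lower in mean (median -0.96), with Ccr7 at -1.75 ± 0.49, Cd3g at -1.58 ± 0.46 and Lck at -1.56 ± 0.50. So were all 10 B-cell markers (median -0.85), with Cd72 at -1.82 ± 0.58, Blk at -1.56 ± 0.58 and Ms4a1 at -1.25 ± 0.57. Cd72 was measured on 2 of the 4 untreated arrays and Blk and Ms4a1 on 3, against all 4 sham arrays. Their changes therefore rest in part on background values. Of 11 erythroid markers 10 were lower (median -1.15), with Klf1 at -1.45 ± 0.47, Epb42 at -1.60 ± 0.56 and Trim58 at -1.56 ± 0.55. Platelet markers were higher in 7 of 9 (median 0.36), with Selp at 2.67 ± 0.76, Thbs1 at 1.10 ± 0.44 and Vwf at 0.83 ± 0.34. Thbs1 was measured on 3 untreated arrays and on no sham array. Reckoned as for Cd163, its untreated mean lay 2.15-fold above sham, which is no firm bound. Markers of eosinophils, basophils and mast cells were higher in 3 of 4 (median 0.28), with Siglec5 at 0.47 ± 0.41 and Ccr3 at 0.08 ± 0.42. Siglec5 was measured on 4 untreated and 3 sham arrays, and Ccr3 on 2 untreated arrays and 1 sham array. Cpa3 was measured on 2 untreated arrays and on no sham array. Reckoned as for Cd163, its untreated mean lay 1.11-fold above sham, which is no firm bound. Single arrays carried part of this. The B-cell score was -2.30 on untreated 2 against 0.64, 0.60 and -0.26 on untreated 1, 3 and 4 and 0.40 to 0.76 in sham, and the T-cell score was -2.54 against 0.45, 0.05 and -0.56, with 0.06 to 0.86 in sham. The neutrophil score was 1.85 on untreated 2 and -0.82 to -0.31 on the others. The erythroid score was lowest on untreated 3 (-1.87) and untreated 4 (-1.45), and 0.40 and 0.71 on untreated 1 and 2. In omeprazole against sham 4 of the 17 neutrophil markers rose, against 0.742% of all genes called higher there: Cxcr2 (1.77 ± 0.45), Csf3r (1.59 ± 0.42), Padi4 (1.75 ± 0.47) and Mcemp1 (1.91 ± 0.50), with limma adjusted p values of 0.0242 to 0.0372. The part of these cells in the members' levels was tested only through the neutrophil score.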

How the data were processed

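Whole-blood RNA was labelled with Cy3 and hybridised to 1-colour Agilent rat arrays. Per the file headers, spot intensities were extracted with Agilent Feature Extraction 10.7.3.1, with background subtraction and spatial detrending. The deposited table of the authors gives a ratio, found by comparison with the scanner files to be each spot's intensity over its array's median; its 8 STW5 columns follow the array of the other dose. Other steps are not given in the sources used here.

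Spots of a probe were averaged without outlier flags. A log2 level is the deposited intensity on a log2 scale minus that of the array's 75th percentile. Kept were probes that 4 or more arrays measured well above background, and the brightest stood for a gene. limma 3.58.1 (lmFit, eBayes; R 4.3.3) fitted 5 group means to all 20 arrays (15 residual degrees of freedom), with two-sided tests and Benjamini-Hochberg adjustment over 15239 genes at 0.05. Adjusted p values and SEs of log2 changes come from this fit, so that each SE rests on the spread within all 5 groups. Correlations have permutation p values (100000 resamples, numpy 2.4.6), adjusted within each family of 21 pairs or 7 members. Their number of arrays limits the precision. On simulated data the fit was checked first.

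The members, the gene lists and the tests were chosen with earlier results of these data known. Named are all 8 members, from each list the 3 genes with the smallest p in untreated against sham and any gene that passed and the 3 genes most like each member. The alternatives were other background corrections, scalings, filters and probe choices, a replicate block, covariates, fewer arrays and each array left out. A further 2 were added after the data were seen: the other probe of Csf1r and Vcan, and leaving out untreated 2 and 4.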

Additional observations from a re-analysis of the deposited data

Results flagged for a closer look

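In groups of 4, 3 of the 50 combinations of member probe and group had 1 array far from the other 3, measured as its gap to the nearest over the group's range. Chance gives about 1 in 20 such groups, so this number is near what chance gives. Klf4 lay at 0.42 on omeprazole 3, below the 1.04 to 1.10 of the other omeprazole arrays. The dimmer Vcan probe lay at -2.45 on STW5 2 ml/kg replicate 4, where it was not well above background, and the brighter Vcan probe was also lowest of its group there, at -1.77. Cd163 lay at -5.56 on sham 2, where, as on the other sham arrays, the probe stayed near background, so it gives no level of the transcript.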

How the results depend on the processing

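Of the member changes recomputed under other settings, 837 were counted as keeping their direction and their side of the threshold. Another 18 came to pass and 53 changed sign. Lgals3 in omeprazole against untreated, with a main change of 0.00, could not be counted as changing sign. It went from -0.30 to 0.11 under other processing and was 0.78 without untreated 2 and 4. For all changes of sign and counts below the cause was not tested. The number of genes past the threshold in untreated against sham went from 1 to 0 with normexp, quantile or spike-in scaling, no filter, probes measured on all arrays, the replicate block, only the arrays compared, either covariate, and without untreated 2 and 4. It ranged from 0 to 1773 with single arrays left out, with 1773 without untreated 1. In omeprazole against untreated it was 1191 with array signal as covariate, 382 with only the arrays compared, 365 with probes measured on all arrays, 404 with spike-in scaling and 389 without untreated 2 and 4, and 468 to 1143 with single arrays left out. For both STW5 doses against untreated it was 0 to 168 with single arrays left out (168 without untreated 1, 1 without untreated 3). Between doses it was 4 with the neutrophil covariate, 5385 with no filter, 3761 with normexp, 157 with probes measured on all arrays, 7762 with spike-in scaling and 529 with the replicate block, and 0 to 807 with single arrays left out (807 without STW5 2 ml/kg replicate 3, 228 without STW5 0.5 ml/kg replicate 1, 144 without its replicate 4). In omeprazole against sham it was 1476 with only the arrays compared, 355 with spike-in scaling and 433 to 737 with single arrays left out. For both STW5 doses against sham it was 6 with array signal as covariate and 0 with any array left out. The replicate block changed no member's call. Deviations of same-numbered arrays from their group means correlated at -0.437 to 0.588, below 0.1 for at least 1 number in each pair of groups but untreated and STW5 2 ml/kg (0.188 to 0.488), so the numbers were not taken to pair the samples. Spike-in scaling moved the median of all genes to 0.37, 0.18, -0.29, -1.09, 0.56 and 0.11 for untreated against sham, omeprazole and STW5 against untreated, the doses, and omeprazole and STW5 against sham. Pairs that varied together numbered 7 with group means removed and 13 to 15 with single arrays left out. Members that moved with array signal numbered 6 with quantile, 7 with spike-in scaling, 0 with group means removed and 2 to 5 with single arrays left out. Spike-in scaling leaves the brightness of each array in the levels, so a relation with array signal is in part built in there.

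Changes of sign were as follows. With array signal as covariate Cd68 turned between doses (0.08) and in omeprazole against sham (-0.18), Klf4 in STW5 against sham (-0.07) and Lyz2 between doses (-0.54) and in untreated against sham (0.14). With the neutrophil covariate omeprazole against sham turned for Cd14 (-0.22), Cd68 (-0.15), Csf1r (-0.19) and Lyz2 (-0.17), and STW5 against sham for Cd14 (-0.64), Klf4 (-0.08) and Lyz2 (-0.22). In untreated against sham Csf1r turned with the deposited table (0.04), normexp (0.04), quantile (0.03) and spike-in scaling (0.54), and Lyz2 with normexp (0.04), quantile (0.37) and spike-in scaling (0.40). Between doses Lyz2 turned with normexp (-0.32), quantile (-0.73) and spike-in scaling (-1.24, adjusted p = 0.0101 in limma), where the other 6 members also passed, at -1.89 to -2.45. Spike-in scaling turned Csf1r in STW5 against sham (0.02) and Lyz2 in STW5 against untreated (-0.11). The mean of probes turned Csf1r in STW5 against untreated (0.23), as did its other probe (0.59), which also turned the doses (0.40). With only STW5 0.5 ml/kg, Csf1r turned against sham (0.15) and untreated (0.17), and Klf4 (0.11) and Lgals3 (0.07) against untreated. With only STW5 2 ml/kg, Cd14 (-0.08), Cd68 (-0.13) and Klf4 (-0.51) turned against sham. Without untreated 2 and 4, STW5 against untreated turned for Cd14 (0.08), Csf1r (0.33), Lgals3 (0.41) and Vcan (0.13), and omeprazole against untreated for Cd14 (0.81). With single arrays left out, both signs occurred for Klf4 in STW5 against sham (-0.07 to 0.22), Lyz2 between doses (-0.13 to 0.25) and in untreated against sham (-0.30 to 0.04). They did so also for Csf1r in untreated against sham (-0.22 to 0.24), in omeprazole against untreated (-0.13 to 0.33) and in STW5 against untreated (-0.40 to 0.06), Cd14 in omeprazole against untreated (-1.33 to 0.19) and Lgals3 in STW5 against untreated (-0.84 to 0.07). For Lgals3 in omeprazole against untreated, whose main change was 0.00, the values ran from -0.47 to 0.44. The deposited table was not used between doses, since its STW5 columns follow the other dose. Probes near background limit Cd163, whose low values have no order.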
